A study of Mus musculus with 6 samples.

Results

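The genes described here are the matrix metalloproteinases (Mmp genes), the secreted proteinases with thrombospondin repeats (Adamts genes) and the tissue inhibitors of metalloproteinases (Timp genes) of mouse thyroid organoids. They were chosen by name: every gene of the count table whose symbol is Mmp, Adamts or Timp followed by digits and an optional letter. This gave 46 of 25239 genes, namely 23 Mmp, 19 Adamts and 4 Timp genes, and the rule uses no measured value.

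RNA-seq was performed at day 31 on organoids differentiated from a single G4 RosaLuc mouse embryonic stem cell line that carries TRE-Nkx2-1-Pax8 and bTg-NES-BrafV637E-ERT2, with 2 libraries in each of 3 groups. In this line doxycycline switches on Nkx2-1 and Pax8, and a bovine thyroglobulin promoter drives a fusion of mutant Braf to a modified estrogen receptor that 4-hydroxytamoxifen (4OHT) activates. BrafV637E is the mouse counterpart of the human oncogene BRAF V600E, which signals through MEK to ERK, and the study asked how thyroid cells respond to it and to drugs that block its pathways. All 3 groups had received doxycycline for 5 days and 8-Br-cAMP for 2 weeks, and follicles had been enriched at day 23 by enzymatic digestion and filtering. The cAMP group stayed in 8-Br-cAMP with the vehicle and without 4OHT. The 4OHT group received 1 µM 4OHT with 8-Br-cAMP for 5 days. The PD+LY group received 250 nM PD0325901, a MEK inhibitor, and 5 µM LY204002, as the labels spell the PI3K inhibitor, together with 1 µM 4OHT and 8-Br-cAMP for 3 days, after 4OHT alone (4 days per the study's methods), so the total time in 4OHT can differ between the last 2 groups. Several limits apply to these groups as a model: 1 line was used, and the promoter confines the oncogene to thyroglobulin-expressing cells while other cell types were present. In the study's control line, which carries eGFP in place of the oncogene, this promoter did not mark all thyroglobulin-expressing cells. At least 3 wells were pooled per condition. The methods describe the RNA-seq as done in duplicate without saying whether the 2 libraries of a group came from separate differentiations. Where they did not, p-values measure only the spread between these libraries, which may be technical.

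Matrix metalloproteinases are zinc-dependent enzymes that, as a family, cut most proteins of the extracellular matrix. Collagenases open fibrillar collagen, gelatinases digest denatured collagen and basement membrane collagen, stromelysins cut proteoglycans, laminin and fibronectin and can activate other proenzymes, and membrane-type members act at the cell surface. ADAMTS proteinases cut proteoglycans or trim procollagens, and TIMPs bind the active site of these enzymes and block them. In the thyroid, as in other glands, each follicle rests on a basement membrane that these enzymes can remodel.

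Values are given as raw counts or as CPM, that is, counts relative to the TMM-scaled total of the library, expressed per 1000000 counts. The libraries held 14898409 to 20637959 counts, so that 1 count was worth 0.0486 to 0.0667 CPM and the floor of 3 counts used here 0.146 to 0.200 CPM (counting error only). A gene was called changed when its Benjamini-Hochberg adjusted p over the 15256 genes tested with edgeR's quasi-likelihood test was under 0.05 and the change was at least 2-fold. With 2 libraries against 2, an exact permutation test of a single gene cannot go below p = 0.3333, so calls rest on the model shared across genes. In PD+LY against 4OHT, the ERK-responsive genes Spry4, Dusp6 and Etv4 had log2 fold changes of -6.33, -2.45 and -6.18. They check the PD+LY label for the MEK inhibitor but not for the PI3K inhibitor. Between 4OHT and cAMP none of them was called, with 0.10 (edgeR adjusted p = 0.766) for Spry4, -0.72 (0.00489) for Dusp6 and 0.80 (0.0064) for Etv4. Tg, which encodes thyroglobulin, fell by 1.10 on the log2 scale in 4OHT against cAMP (edgeR adjusted p = 0.0304) and was 1.20 higher in PD+LY than in 4OHT (adjusted p = 0.00913). It measured 1565 and 1022 CPM in cAMP, 514 and 693 in 4OHT, and 1869 and 907 in PD+LY, so the PD+LY libraries differed widely. Of 9 tested thyroid markers, 2 were called lower in 4OHT against cAMP (background 1.51%). In PD+LY against 4OHT 6 were called higher (background 2.35%). The 10 fibroblast and mesenchyme markers summed to 1189 to 1288 CPM in cAMP, 2217 to 2338 in 4OHT and 3970 to 4635 in PD+LY, with Col1a1, Col1a2, Col3a1 and Dcn called higher and Pdgfrb called lower in PD+LY against cAMP. The 3 collagen genes dominated these sums, and the other 7 markers summed to 272 to 294, 296 to 325 and 257 to 372 CPM in the same order of groups. Leukocyte markers were few: the macrophage-defining genes Ptprc, Adgre1, C1qa and C1qb and the neutrophil genes Elane and Ngp had no count in any library.

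Of the 46 genes, 37 had enough counts to be tested. The 9 others were Mmp1a and Mmp27, with no count in any library, and Mmp1b, Mmp7, Mmp8, Mmp20, Mmp21, Adamts13 and Adamts18, with at most 10 counts in a library. The enamel proteinase Mmp20 had 0 to 2 counts and the von Willebrand factor-cleaving Adamts13 had 0 to 3. Adamts18 had 2 and 2 counts in cAMP, 4 and 2 in 4OHT and 10 and 10 in PD+LY, too few for the test.

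Among the tested genes, the level per kb of annotated exon spanned a wide range, led by Mmp2, the gelatinase most typical of mesenchymal cells. Mmp2 stood at 39.4 ± 0.86 CPM per kb in cAMP (SD, n = 2), 55.6 ± 2.81 in 4OHT and 55.3 ± 9.34 in PD+LY. Next by their mean over the 6 libraries came Timp1, Timp2, Mmp14, which encodes the membrane-type collagenase MT1-MMP, and Timp3. The highest ADAMTS genes were Adamts9 and Adamts1, proteoglycanases that cut versican, with 7.84 ± 0.57 and 6.12 ± 0.82 CPM per kb in cAMP. At the low end, Timp4, Mmp16 and Adamts19 stayed near or under 0.1 CPM per kb.

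**Figure D1:**
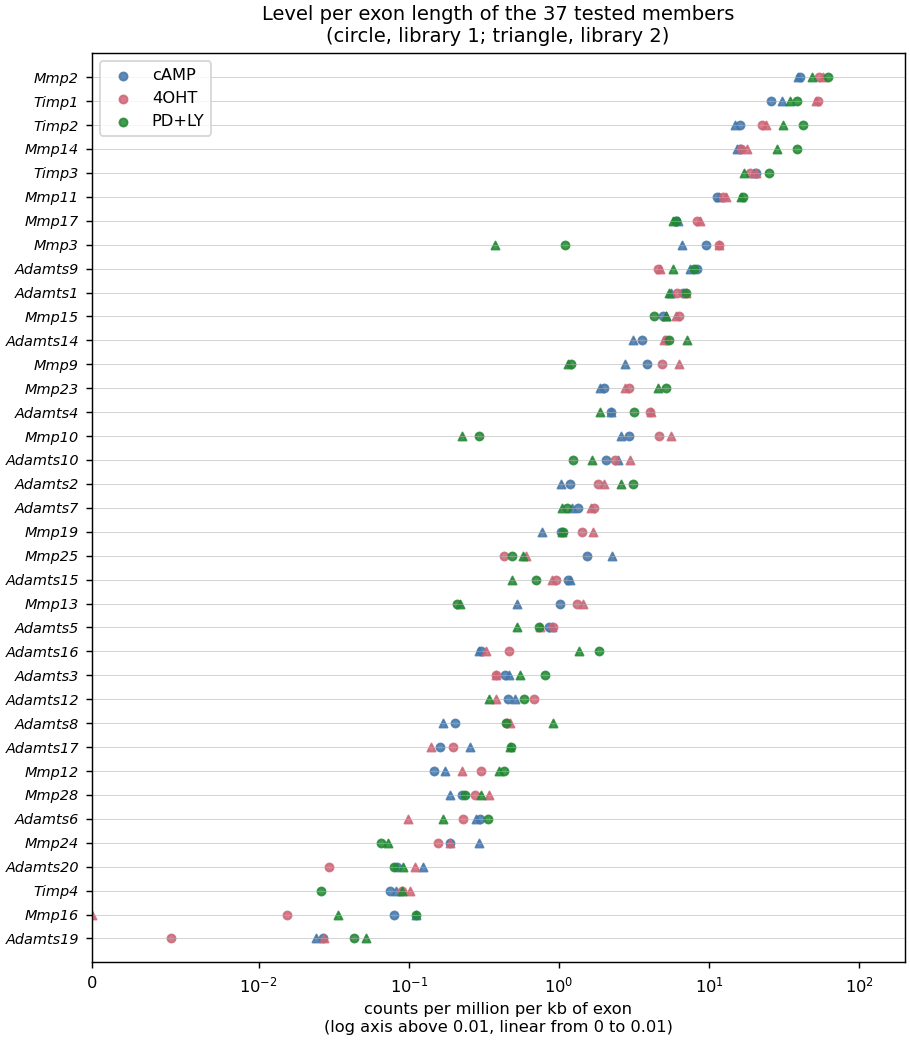
Level of each of the 37 tested in CPM per kb of exon (x axis (x axis, logarithmic above 0.01 and linear below), with genes ordered by their mean over 6 libraries (y axis) and 1 point per library, coloured by group. Mmp2, Timp1, Timp2, Mmp14 and Timp3 lead, and the green PD+LY points of Mmp3, Mmp10, Mmp9 and Mmp13 lie apart to the left of the cAMP and 4OHT points.

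Summed over each family on the same per-kb scale, the 23 Mmp genes gave 101 and 95.4 in the cAMP libraries, 125 and 134 in 4OHT and 138 and 113 in PD+LY. The 4 Timp genes gave 62.7 and 65.7 in cAMP, 94.2 and 96.2 in 4OHT and 106 and 82.6 in PD+LY. The ratio of the Timp sum to the Mmp sum was 0.621 and 0.688 in cAMP, 0.753 and 0.718 in 4OHT and 0.764 and 0.728 in PD+LY. Both sums were lower in each cAMP library than in any other, and the 4OHT and PD+LY libraries overlapped. Mmp2 was the largest single term of the Mmp sum, and Timp1, Timp2 and Timp3 made up nearly all of the Timp sum.

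Of the 37 tested genes, 14 were called in at least 1 comparison and 23 in none. All 14 were called in PD+LY against cAMP, where 9.24% of all tested genes were. The share of all tested genes called in any of the 3 comparisons was not computed. In 4OHT against cAMP only Mmp25 was called, and it was lower. This is 1 of 37 where 2.67% of all tested genes were called (1.17% higher and 1.51% lower). By adjusted p alone, without the fold threshold, 11 of 37 (29.7%) passed, 9 of them higher in 4OHT, where 8.39% of all tested genes did. The median log2 fold change of the 37 was 0.29, beside 0.00 over all tested genes.

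In PD+LY against 4OHT, 6 of 37 were called where 7.26% of all tested genes were. The 4 that fell, Mmp3, Mmp10, Mmp13 and Mmp9, were all secreted metalloproteinases (background 4.90% called lower), and the 2 that rose, Adamts16 and Adamts17, were both ADAMTS genes (background 2.35% called higher). No Timp gene was called. By adjusted p alone 18 of 37 (48.6%) passed where 22.7% of all tested genes did, with a median log2 fold change of -0.01 over the 37 and 0.01 over all tested genes.

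In PD+LY against cAMP, 14 of 37 were called where 9.24% of all tested genes were. The 8 that rose were Mmp12, Mmp14, Mmp23, Adamts2, Adamts8, Adamts16, Adamts17 and Timp2 (background 3.00% called higher), and the 6 that fell were the Mmp genes Mmp3, Mmp9, Mmp10, Mmp13, Mmp24 and Mmp25 (background 6.24% called lower). By adjusted p alone 19 of 37 (51.4%) passed where 25.7% of all tested genes did. This comparison shares its PD+LY libraries with the one against 4OHT and its cAMP libraries with that of 4OHT against cAMP, so counts and values are set side by side and their overlap is not read as a result.

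**Figure D2:**
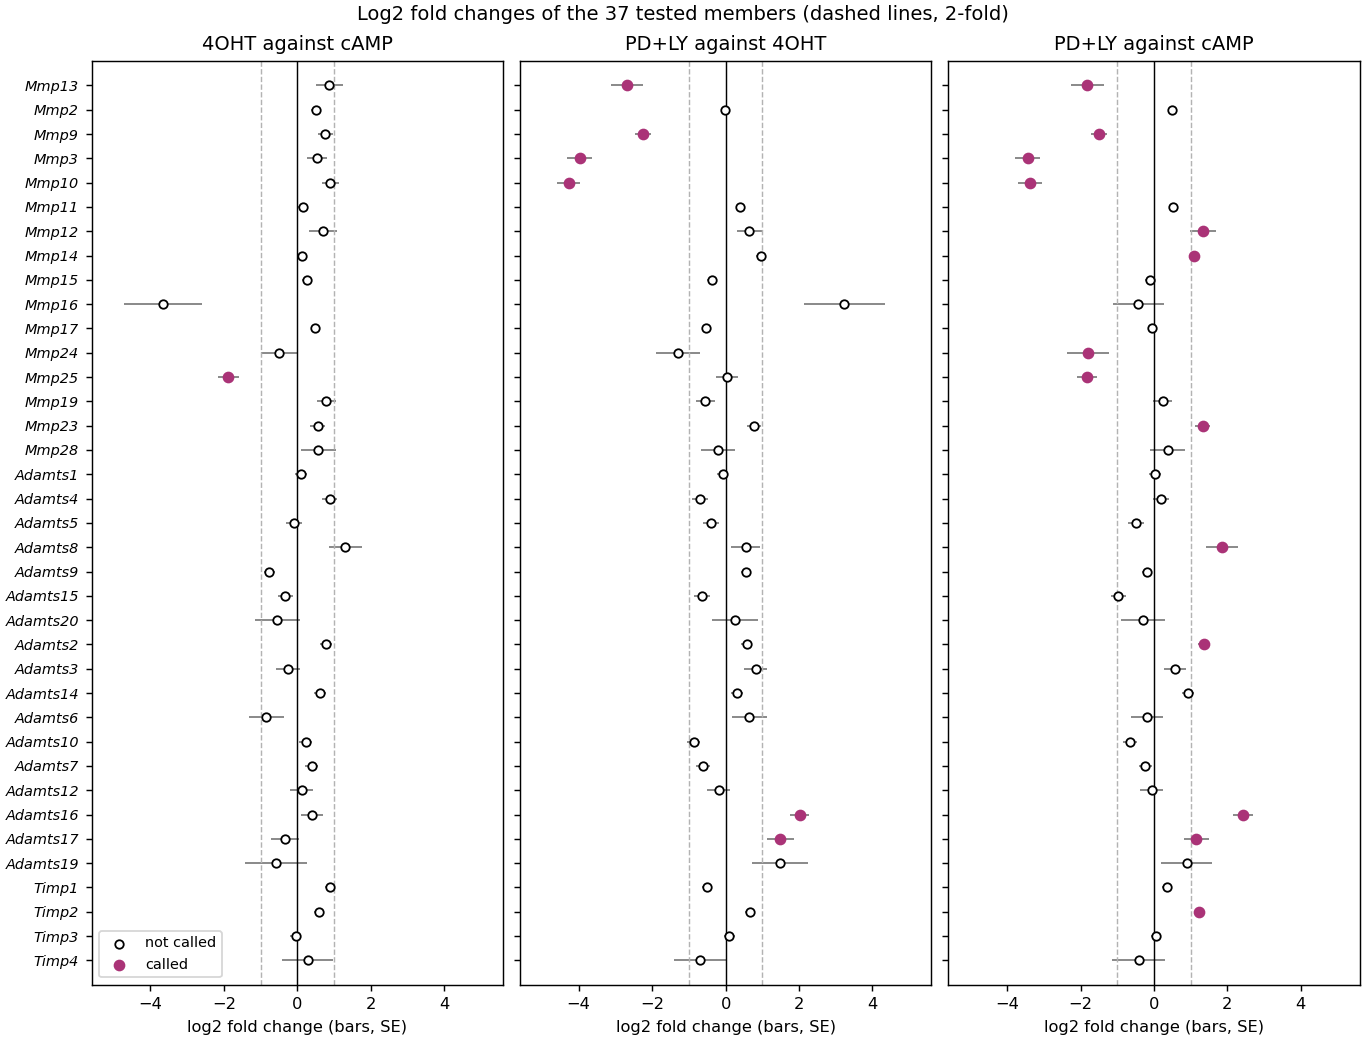
Log2 fold change (x axis) with its standard error (bars) of the 37 tested genes (y axis) for 4OHT over cAMP (left), PD+LY over 4OHT (middle) and PD+LY over cAMP (right). Filled points are called, and dashed lines mark a 2-fold change. Called points to the left are Mmp genes in every panel, while called points to the right include ADAMTS genes, Mmp genes and Timp2.

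The largest changes were those of the stromelysins Mmp3 and Mmp10, which encode close relatives of broad substrate range. Mmp3 measured 17.1 and 11.9 CPM in cAMP, 20.9 and 20.9 in 4OHT, and 1.99 and 0.681 in PD+LY. Every PD+LY library lay far below the 4 others, while cAMP and 4OHT were closer, with both 4OHT libraries above both cAMP libraries. The log2 fold change was -3.98 (SE 0.33), a 15.7-fold lower level, in PD+LY against 4OHT with an edgeR quasi-likelihood adjusted p of 1.76e-05, and -3.44 (SE 0.34) against cAMP. Between 4OHT and cAMP it was 0.54 (SE 0.26, adjusted p = 0.236), or 0.81 without cAMP library 1 and 0.30 without cAMP library 2. The PD+LY libraries differed from each other (39 and 14 counts), and the change against 4OHT was -4.93 without PD+LY library 1 and -3.39 without PD+LY library 2, called in both cases. In bulk RNA of this kind, fewer cells of a type and less RNA per cell cannot be told apart, here and for each gene below.

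Mmp10 measured 5.03 and 4.43 CPM in cAMP, 7.94 and 9.65 in 4OHT, and 0.509 and 0.389 in PD+LY, the last being 10 and 8 counts. The 3 groups did not overlap, and their order was 4OHT, cAMP, PD+LY. Its level in PD+LY was 19.4-fold below that in 4OHT (log2 -4.28, SE 0.32, edgeR adjusted p = 7.62e-06) and 10.4-fold below that in cAMP. The rise in 4OHT against cAMP was 0.90 on the log2 scale (SE 0.24), which passed by adjusted p (0.0387) but not by size. The transcripts of Mmp3 and Mmp10 share 81.9% of bases over 1347 aligned bases, so reads could be split between them where identical stretches are long. The third stromelysin by name, Mmp11, which differs from the other two in substrates and in being activated inside the cell by furin, moved little: 31.1 and 32.4 CPM in cAMP, 34.3 and 35.9 in 4OHT and 46.3 and 45.5 in PD+LY, with changes of 0.39 against 4OHT and 0.53 against cAMP, both under 2-fold and with adjusted p of 0.0314 and 0.00559 (edgeR).

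Among the collagenases, only Mmp13, which is also known from cartilage and bone, was tested. It measured 2.70 and 1.41 CPM in cAMP, 3.53 and 3.89 in 4OHT, and 0.560 and 0.583 in PD+LY, or 11 and 12 counts in the last group. PD+LY lay below the other groups, and cAMP spread over almost a 2-fold range. Against 4OHT the level was 6.44-fold lower (log2 -2.69, SE 0.43, edgeR adjusted p = 0.00107). Against cAMP the change was -1.81 (SE 0.45, adjusted p = 0.0108), and without cAMP library 1 it was -1.30 and no longer called (adjusted p = 0.111). The 10 cartilage and bone markers also summed lower in PD+LY, 47.1 to 49.9 CPM beside 94.5 to 117 in 4OHT and 151 to 152 in cAMP. Of the 7 tested, 1 was called lower against 4OHT (Col9a1), where 4.90% of all tested genes were. Of the bone markers in the list, Bglap had no count in any library, Ibsp had none in 4OHT or PD+LY, and Sp7 had 0 and 1 counts in cAMP, 0 and 0 in 4OHT and 9 and 4 in PD+LY. The part of these markers in the fall of Mmp13 was not tested.

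Of the gelatinases, Mmp9 fell under the inhibitors and Mmp2 did not. Mmp9 measured 13.6 and 9.79 CPM in cAMP, 17.3 and 22.2 in 4OHT, and 4.23 and 4.08 in PD+LY. The groups were separate, with the PD+LY libraries nearly equal to each other. Its level was 4.75-fold lower in PD+LY than in 4OHT (log2 -2.25, SE 0.22, edgeR adjusted p = 4.52e-05) and 2.80-fold lower than in cAMP. In 4OHT against cAMP it was 0.76 higher on the log2 scale (SE 0.20, adjusted p = 0.037), under 2-fold. Leaving out each library in turn gave 0.54 (without cAMP library 2) to 1.01 (without cAMP library 1). Mmp2 measured 135 and 131 CPM in cAMP, 181 and 194 in 4OHT, and 209 and 164 in PD+LY. Its change was 0.50 in 4OHT against cAMP (adjusted p = 0.0206) and -0.01 (SE 0.11) between PD+LY and 4OHT, both from the same edgeR model. Neutrophils are a known source of Mmp9. Of 3 tested neutrophil markers, 2 (Ltf and Camp) were called lower in PD+LY against 4OHT (background 4.90% called lower). The list summed to 28.8 to 49.1 CPM in 4OHT and 10.9 to 21.7 in PD+LY, almost all of it Ltf. Camp had 4 and 5 counts in cAMP, 17 and 10 in 4OHT and none in PD+LY. The defining genes Elane and Ngp were at 0, and Ly6g had at most 1 count. S100a8 had 0 and 2 counts in cAMP, 8 and 8 in 4OHT and 0 and 2 in PD+LY, S100a9 had 4 and 5 in 4OHT and none elsewhere, and the third tested marker, Csf3r, had 2 and 6 in cAMP, 8 and 13 in 4OHT and 8 and 24 in PD+LY. The part of these markers in the fall of Mmp9 was not tested.

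**Figure D3:**
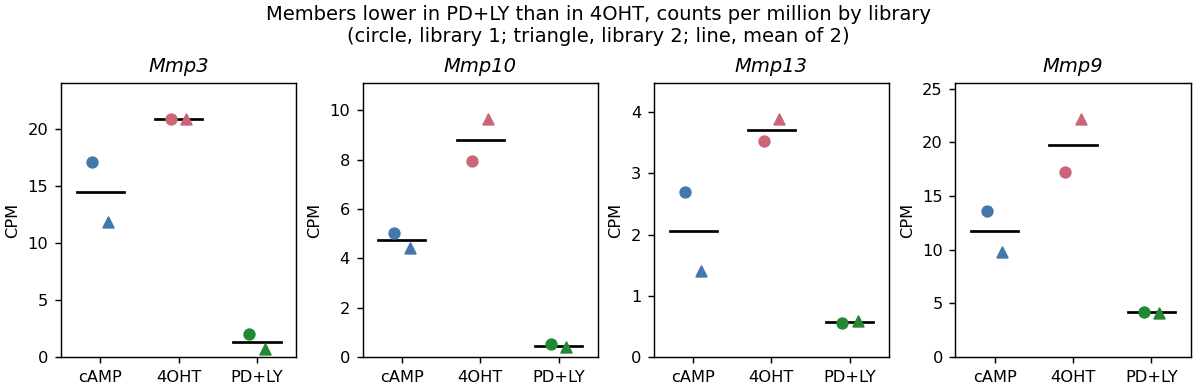
CPM (y axis, linear from 0) of Mmp3, Mmp10, Mmp13 and Mmp9 in each library of the cAMP, 4OHT and PD+LY groups (x axis), with lines at the mean of 2. All PD+LY points lie below all cAMP and 4OHT points in the 4 panels, and the 4OHT points are the highest.

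Mmp3, Mmp10 and Mmp13 lie in 1 cluster of MMP genes. On mouse chromosome 9 (GRCm38, GENCODE M21), 10 of the 23 Mmp genes occupy chr9:7272514-7699585, 427072 bases in all, in the order Mmp13, Mmp12, Mmp1b, Mmp3, Mmp1a, Mmp10, Mmp8, Mmp27, Mmp20 and Mmp7. Mmp9 is not among them (chr2:164940780-164955850). Of the 10, 4 were tested in these organoids: Mmp13, Mmp3 and Mmp10 fell in PD+LY against 4OHT, while their neighbour Mmp12 measured 0.64 higher (SE 0.34, edgeR adjusted p = 0.191). The 6 others were at 0 to 6 counts in each library, Mmp1a being annotated as a polymorphic pseudogene. The cluster was therefore expressed unevenly, and its expressed genes did not move as a block.

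**Figure D4:**
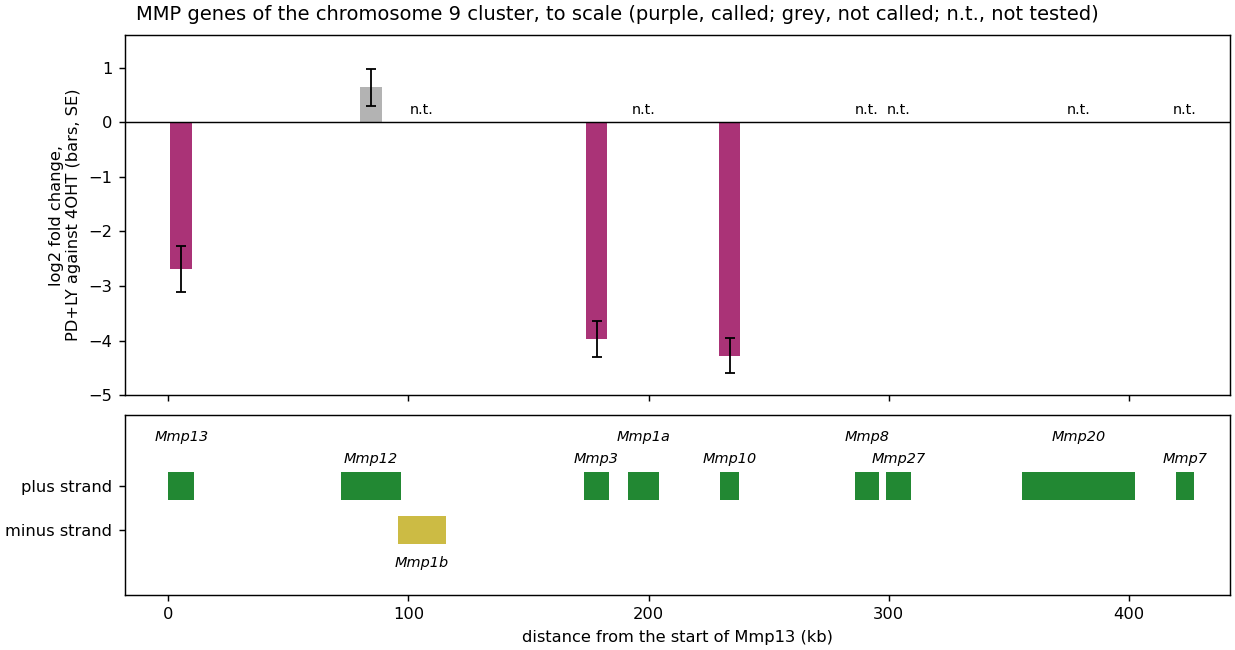
The 10 MMP genes of the chromosome 9 cluster drawn to scale by distance in kb from the start of Mmp13 (x axis, lower panel by strand), with the log2 fold change of PD+LY against 4OHT and its standard error above each tested gene. Mmp13, Mmp3 and Mmp10 (purple) lie at -2.69, -3.98 and -4.28, Mmp12 (grey, not called) lies at 0.64, and the other 6 genes were not tested.

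The sequences before the start sites of the cluster genes that changed are shown because ERK signalling is known to act on AP-1 and ETS factors, whose binding letters can be looked for there. They come from RefSeq (GRCm38.p6, plus strand) and cover the 150 bases before the annotated start, 5′ to 3′. Capitals mark the AP-1 letters TGANTCA (N is any base), the ETS letters AGGAAG (or CTTCCT on the other strand) and the TATA letters TATAAA, each searched on both strands. The positions are chr9:7445672-7445821 for Mmp3, chr9:7502192-7502341 for Mmp10, chr9:7272364-7272513 for Mmp13, and chr9:7344247-7344396 and chr9:7347224-7347373 for the 2 annotated starts of Mmp12.
Mmp3: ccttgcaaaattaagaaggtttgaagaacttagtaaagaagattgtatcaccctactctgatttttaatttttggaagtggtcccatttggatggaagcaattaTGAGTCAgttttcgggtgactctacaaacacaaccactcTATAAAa
Mmp10: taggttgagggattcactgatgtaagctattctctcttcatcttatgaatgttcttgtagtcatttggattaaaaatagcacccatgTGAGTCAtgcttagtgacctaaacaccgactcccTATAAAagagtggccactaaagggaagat
Mmp13: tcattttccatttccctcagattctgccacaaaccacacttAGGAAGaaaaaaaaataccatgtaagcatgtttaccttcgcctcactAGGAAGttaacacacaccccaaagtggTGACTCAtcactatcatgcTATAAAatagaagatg
Mmp12, first start: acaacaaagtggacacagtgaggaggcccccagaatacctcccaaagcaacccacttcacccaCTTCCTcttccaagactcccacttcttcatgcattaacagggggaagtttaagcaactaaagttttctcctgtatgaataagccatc
Mmp12, second start: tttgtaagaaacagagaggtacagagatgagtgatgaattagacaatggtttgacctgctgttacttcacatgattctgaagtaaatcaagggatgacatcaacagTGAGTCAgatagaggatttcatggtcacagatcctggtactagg

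Mmp3, Mmp10 and Mmp13 all carried the AP-1 letters followed by TATA letters, with the AP-1 letters beginning at -46, -63 and -35 and the TATA letters at -7, -29 and -16 (-1 is the last base before the start). Mmp12, which did not fall, had the AP-1 letters at -44 of its second start and none at its first. Mmp9, which also fell, had no sequence in the RefSeq table. Whether these letters take part in the changes was not tested. In windows of 300 bases (250 before to 50 after the start), 32 of the 46 genes were matched in the RefSeq table and 8 of them (25.0%) held TGANTCA, where 8.97% of 27025 genes did. All 8 (Mmp3, Mmp7, Mmp10, Mmp12, Mmp13, Mmp20, Mmp1a and Mmp1b) belong to the chromosome 9 cluster, and 4 of these were not tested for lack of counts. AGGAAG was found in 15 of 32 (46.9%) beside 38.4% of all genes, and TATAAA in 11 of 32 (34.4%) beside 15.7%. These matches are a description of letters, not of bound sites, and genes of 1 cluster share ancestry.

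Mmp12, the metalloelastase of macrophages, rose from low counts. It measured 17 and 26 counts in cAMP (1.07 and 1.27 CPM), 33 and 30 in 4OHT (2.20 and 1.64 CPM), and 61 and 59 in PD+LY (3.11 and 2.87 CPM). The 3 groups did not overlap, with PD+LY highest. The change in PD+LY against cAMP was 1.34 (SE 0.35, edgeR adjusted p = 0.0158), and the call was lost without cAMP library 1 (adjusted p = 0.0858) and without cAMP library 2 (0.0577). The macrophage markers did not rise with it: the list summed to 69.8 CPM in both cAMP libraries, 59.8 to 67.7 in 4OHT and 33.1 to 34.8 in PD+LY. Most of each sum was Cd68 alone, with means of 64.9, 58.7 and 31.7 CPM in the same order of groups. Cd68 and Lyz2 were called lower in PD+LY against cAMP, and Ptprc, Adgre1, C1qa and C1qb were at 0 throughout. The part of macrophages in the change of Mmp12 was not tested. Exons of Mmp12 and Mmp1b overlap on opposite strands by 157 bases, and counting did not use strand, but Mmp1b itself had at most 4 counts.

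Of the 6 membrane-type MMP genes, all tested, Mmp14 was the most abundant and rose, while Mmp25 and Mmp24 fell. Mmp14 activates pro-MMP2 at the cell surface together with TIMP2 and cuts fibrillar collagen. It measured 95.6 and 92.0 CPM in cAMP, 97.8 and 107 in 4OHT, and 231 and 168 in PD+LY. The PD+LY libraries lay above all others, and cAMP and 4OHT were alike in level. Against cAMP the change was 1.09 (SE 0.13, edgeR adjusted p = 0.000126), and against 4OHT it was 0.97 (SE 0.13, adjusted p = 0.000459), just under 2-fold and thus not called. Without PD+LY library 1 the change against cAMP was 0.85, under 2-fold, and without PD+LY library 2 the change against 4OHT was 1.18, over it. In 4OHT against cAMP it was 0.12 (SE 0.13, adjusted p = 0.621).

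Mmp25, a membrane-anchored proteinase first known from leukocytes, was the 1 gene called in 4OHT against cAMP. It measured 8.11 and 12.03 CPM in cAMP (129 and 247 counts), 2.27 and 3.18 in 4OHT, and 2.60 and 3.06 in PD+LY. Both cAMP libraries lay above the 4 others, and the 4OHT and PD+LY libraries overlapped. The level was 3.68-fold lower in 4OHT than in cAMP (log2 -1.88, SE 0.28, edgeR adjusted p = 0.00221) and 3.57-fold lower in PD+LY than in cAMP, with a difference of 0.05 (SE 0.30) between PD+LY and 4OHT. Leaving out each library in turn gave -2.15 to -1.56 in 4OHT against cAMP, called every time. Of 9 tested endothelial markers, 4 (Cdh5, Kdr, Tie1 and Cldn5, at -1.47, -2.31, -3.46 and -1.98) were called lower in 4OHT against cAMP, where 1.51% of all tested genes were, and none was called between PD+LY and 4OHT. The 5 others were not called, and 3 of them, Pecam1 among them (0.36), had values above 0. The list of 10 summed to 230 to 234 CPM in cAMP, 251 to 254 in 4OHT and 222 to 231 in PD+LY, a sum dominated by Pecam1. Of the leukocyte lists, the 3 tested neutrophil markers all measured above 0 in 4OHT against cAMP. The 4 tested macrophage markers split into 2 above and 2 below 0, and none of either list was called. The part of these endothelial and leukocyte markers in the change of Mmp25 was not tested.

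Mmp24, a membrane-type MMP best known from neurons, was at 14 and 28 counts in cAMP, 11 and 16 in 4OHT, and 6 and 7 in PD+LY. Its change of -1.79 in PD+LY against cAMP (SE 0.57, edgeR adjusted p = 0.0365) was lost when any 1 library was left out (adjusted p up to 0.277) and in DESeq2 (0.105), and its exons overlap those of BC029722 on the other strand by 637 bases. Mmp16 stood out after its values were seen. It had 11 and 20 counts in cAMP, 2 and 0 in 4OHT, and 19 and 6 in PD+LY. From the summed counts its level was 14.1 times as high in cAMP as in 4OHT (95% exact interval 3.60 to 122) and 10.3 times as high in PD+LY as in 4OHT (2.58 to 90.0), intervals that cover counting error only. In the edgeR test neither change was called, with adjusted p of 0.0561 and 0.054. The first was called with no filter, with only these 2 groups fitted, and without PD+LY library 1 or 2, and the second with no filter and without PD+LY library 2. The GPI-anchored Mmp17 was 39.7 and 41.3 CPM in cAMP, 54.6 and 57.8 in 4OHT and 40.02 and 38.3 in PD+LY, moving by 0.47 and then by -0.52 on the log2 scale. The remaining member, Mmp15, measured -0.38 (SE 0.13) in PD+LY against 4OHT with an edgeR adjusted p of 0.0633.

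Among the other MMP genes, Mmp23, a type II membrane protein that is shed on activation, rose in steps. It measured 4.65 and 4.38 CPM in cAMP, 6.80 and 6.47 in 4OHT, and 12.01 and 10.6 in PD+LY, with no overlap between groups. Its change was 1.33 (SE 0.20) in PD+LY against cAMP with an edgeR adjusted p of 0.000493, 0.77 (adjusted p = 0.0134) against 4OHT, and 0.55 (adjusted p = 0.121) in 4OHT against cAMP. Mmp19 and Mmp28 were tested and passed in no comparison.

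**Figure D5:**
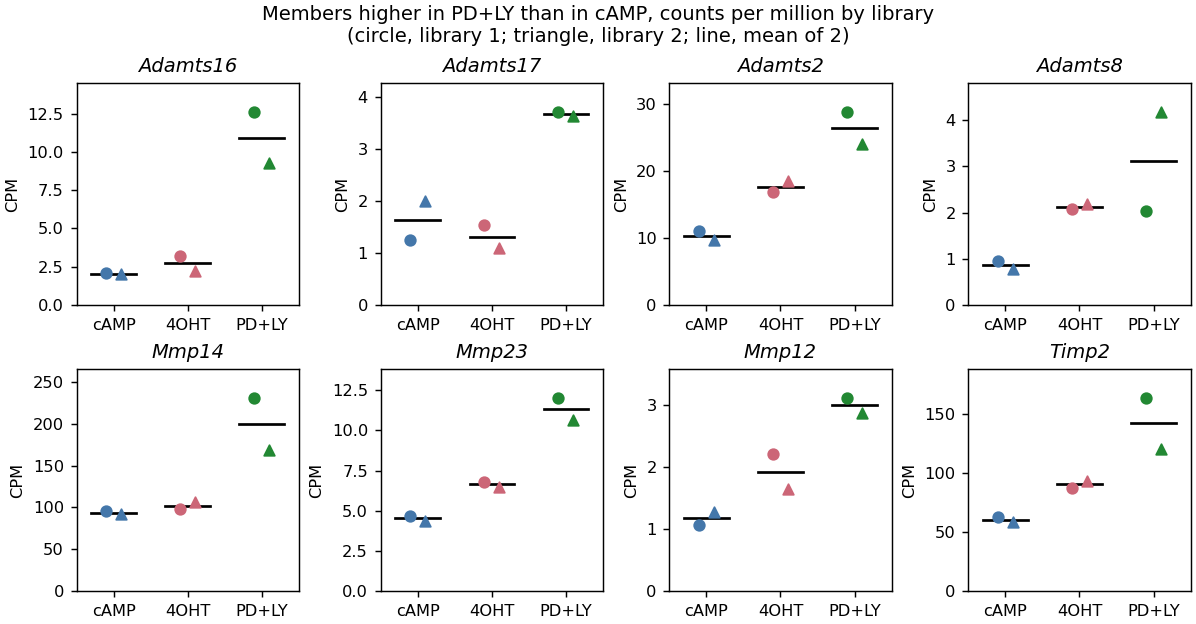
CPM (y axis, linear from 0) of the 8 genes called higher in PD+LY than in cAMP, by library and group (x axis), with lines at the mean of 2. The PD+LY points lie above all others in every panel but that of Adamts8, where PD+LY library 1 lies at 2.04, just under the 4OHT points at 2.07 and 2.19.

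Of 17 tested ADAMTS genes, 4 were called higher in PD+LY against cAMP (background 3.00% called higher). In PD+LY against 4OHT 2 of these were called higher (background 2.35%), and in 4OHT against cAMP 0 were (background 1.17%). None was called lower in any comparison, where the background was 1.51 to 6.24% per comparison, so that few or none of 17 would be called at that share. The clearest was Adamts16, which is expressed in kidney and gonad and can cut fibronectin. It measured 2.07 and 2.00 CPM in cAMP, 3.20 and 2.25 in 4OHT, and 12.6 and 9.28 in PD+LY. Both PD+LY libraries lay well above the other 4. The difference was 2.02 (SE 0.27, edgeR adjusted p = 0.000352) in PD+LY against 4OHT and 2.43 (SE 0.27, adjusted p = 7.08e-05) against cAMP, and it was called in both whichever library was left out. From cAMP to 4OHT it was 0.41 (SE 0.30, adjusted p = 0.45), or 0.15 without 4OHT library 1 and 0.66 without 4OHT library 2.

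Adamts17, whose human counterpart is mutated in a Weill-Marchesani-like syndrome of short stature and lens defects, had lower counts. It measured 1.26 and 2.00 CPM in cAMP, 1.53 and 1.10 in 4OHT, and 3.72 and 3.65 in PD+LY. The PD+LY libraries were the highest, and cAMP and 4OHT overlapped. The change in PD+LY was 1.49 against 4OHT (SE 0.36, edgeR adjusted p = 0.0123) and 1.16 against cAMP (SE 0.35, adjusted p = 0.0294). The first was not called without 4OHT library 2 (adjusted p = 0.125), and the second was not called in DESeq2 (0.0628) or without cAMP library 1 (0.177), PD+LY library 1 (0.0693) or PD+LY library 2 (0.0697). Adamts19 was tested at the lowest level of all and passed in no comparison.

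Adamts2 encodes the main procollagen N-proteinase, which removes the amino-terminal propeptide of fibrillar procollagens. It measured 11.1 and 9.64 CPM in cAMP, 16.9 and 18.5 in 4OHT, and 28.9 and 24.0 in PD+LY. The 3 groups did not overlap. The changes were 0.78 in 4OHT against cAMP (edgeR adjusted p = 0.0135), 0.58 in PD+LY against 4OHT (adjusted p = 0.0191) and 1.36 in PD+LY against cAMP (SE 0.16, adjusted p = 0.000101), the last alone reaching 2-fold. Its relative Adamts14 was 18.5 and 16.1 CPM in cAMP, 26.8 and 26.0 in 4OHT and 28.1 and 37.2 in PD+LY, with changes of 0.61 in 4OHT against cAMP (adjusted p = 0.0371) and 0.92 in PD+LY against cAMP (adjusted p = 0.00138), while Adamts3 passed in no comparison. The fibrillar procollagen genes Col1a1, Col1a2 and Col3a1 moved the same way as Adamts2. They were 1.80, 2.01 and 2.44 higher on the log2 scale in PD+LY than in cAMP. Col2a1, a fibrillar procollagen gene of the cartilage and bone list, went the other way, at -1.48 in this comparison (edgeR adjusted p = 0.000149). How far the number of mesenchymal cells takes part in these values was not tested.

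Of the 7 proteoglycanase ADAMTS genes, Adamts8 was the 1 called. It measured 0.943 and 0.779 CPM in cAMP (15 and 16 counts), 2.07 and 2.19 in 4OHT, and 2.04 and 4.18 in PD+LY. Both cAMP libraries were the lowest, and PD+LY library 2 stood apart from PD+LY library 1. The change in PD+LY against cAMP was 1.86 (SE 0.43, edgeR adjusted p = 0.00807). Without PD+LY library 2 it was 1.25 and not called (adjusted p = 0.0809), and without cAMP library 2 it was 1.72 and not called (adjusted p = 0.0515). From cAMP to 4OHT it was 1.31 (SE 0.45, adjusted p = 0.0972). An antisense gene, Gm29724, overlaps its exons by 489 bases.

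Adamts9 and Adamts4 went opposite ways in 4OHT, both under 2-fold. Adamts9 measured 124 and 112 CPM in cAMP, 68.4 and 70.9 in 4OHT, and 119 and 86.1 in PD+LY. It was lower in 4OHT than in every other library, by -0.76 against cAMP (SE 0.14, edgeR adjusted p = 0.00699), and 0.56 higher in PD+LY than in 4OHT (adjusted p = 0.0132). Adamts4, an aggrecanase, measured 10.7 and 10.6 CPM in cAMP, 19.5 and 19.7 in 4OHT, and 15.3 and 9.09 in PD+LY. It was highest in 4OHT, by 0.88 against cAMP (SE 0.22, adjusted p = 0.027), and PD+LY was -0.69 against 4OHT (adjusted p = 0.0358). Adamts15, Adamts10 and Adamts7 measured -0.64, -0.87 and -0.62 in PD+LY against 4OHT with edgeR adjusted p of 0.0475, 0.00606 and 0.0309. Against cAMP, Adamts15 was at -0.97 and Adamts10 at -0.65 (edgeR adjusted p = 0.00522 and 0.0239), both under 2-fold, and Adamts7 did not pass. Adamts10 acts with fibrillin microfibrils, and Adamts7 cuts cartilage oligomeric matrix protein. Adamts1, Adamts5, Adamts6, Adamts12 and Adamts20 passed in no comparison.

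The inhibitors of these enzymes showed 3 different patterns. Timp1, a soluble inhibitor that binds pro-MMP9, measured 23.01 and 27.3 CPM in cAMP, 46.9 and 46.0 in 4OHT, and 34.2 and 30.6 in PD+LY. The 3 groups did not overlap and 4OHT was the highest. It was 0.88 higher in 4OHT than in cAMP (SE 0.13, edgeR adjusted p = 0.00223) and -0.52 from 4OHT to PD+LY (SE 0.13, adjusted p = 0.0136), both under 2-fold. Without cAMP library 2 the first reached 1.02 and was called.

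Timp2, which binds pro-MMP2 and takes part in its activation by MMP14, was the 1 inhibitor called. It measured 62.8 and 58.2 CPM in cAMP, 87.8 and 93.0 in 4OHT, and 164 and 121 in PD+LY. The groups did not overlap, with cAMP lowest and PD+LY highest. The changes were 0.58 in 4OHT against cAMP (SE 0.13, edgeR adjusted p = 0.0214), 0.65 from 4OHT to PD+LY (SE 0.13, adjusted p = 0.00461) and 1.23 in PD+LY against cAMP (SE 0.13, adjusted p = 5.59e-05). Without PD+LY library 1 the last was 0.9986, just under the 2-fold threshold. The change from 4OHT to PD+LY was 0.42 without PD+LY library 1 and 0.86 without PD+LY library 2, and its adjusted p was 0.0552 without 4OHT library 1. Mmp14 and Timp2 were thus both higher in PD+LY than in cAMP, by 1.09 and 1.23, while their partner Mmp2 was 0.49 higher (adjusted p = 0.00807).

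Timp3, which is held in the matrix and also inhibits ADAMTS and ADAM enzymes, measured 167 and 162 CPM in cAMP, 153 and 167 in 4OHT, and 203 and 139 in PD+LY. The groups overlapped, and no change passed: -0.05, 0.10 and 0.06 in the 3 comparisons with SE 0.14 each. The sign of each of these values changed when some library was left out, and 1733 bases of its exons (21.3%) overlap Syn3 on the other strand. Timp4 was near the floor, with 7 and 10 counts in cAMP, 8 and 11 in 4OHT and 3 and 11 in PD+LY, and passed in no comparison.

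Beyond the 46 genes, 38 genes that act with them were set aside as 5 lists, of which 36 genes were tested. The 1 called in 4OHT against cAMP was Adamtsl4, which binds fibrillin and was 1.20 higher (edgeR adjusted p = 0.00233). In PD+LY against 4OHT 9 of 36 were called, 3 higher and 6 lower, where 7.26% of all tested genes were called (2.35% higher and 4.90% lower). Against cAMP the count was 7 of 36, 3 higher and 4 lower, where 9.24% of all tested genes were (3.00% higher and 6.24% lower). Among the ADAMTS-like genes, which lack the proteinase domain, Thsd4 was 1.63 and 1.67 higher in PD+LY than in 4OHT and cAMP, and Adamtsl3 measured -1.26 and -1.66. Adamtsl2 was called higher in PD+LY against 4OHT, but this rested on 47 summed counts against 2, a ratio of 19.4 with a 95% exact interval of 5.09 to 165 (counting error only).

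Among 12 membrane ADAM genes, sheddases and adhesion proteins related to the ADAMTS family, Adam12 was 1.47 higher in PD+LY than in 4OHT (edgeR adjusted p = 0.00096), and 4 were lower. The lower 4 were Adam28 at -3.18, Adam23 at -1.38, Adam8 at -1.30 and Adam11 at -1.04, the second and last of which are better known as neuronal adhesion proteins. The sheddase Adam17 was 0.54 higher (adjusted p = 0.00309), under 2-fold. Of 4 lecticans, the proteoglycans that these ADAMTS enzymes cut, only Ncan was called, at -1.10 in PD+LY against 4OHT and -1.60 against cAMP. Of 4 tested procollagen C-proteinases and enhancers none was called, Bmp1 measuring 0.99 in PD+LY against cAMP (edgeR adjusted p = 0.000298). Of 9 tested activators, inhibitors and clearance genes, only the proprotein convertase Pcsk5 was called, at 1.46 in PD+LY against cAMP (adjusted p = 0.00268). Without 4OHT library 2, the count in PD+LY against 4OHT fell from 9 to 5, with Adam11, Adamtsl2, Adamtsl3 and Ncan lost.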

How the data were processed

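Per the labels and methods, the authors trimmed paired-end reads of stranded mRNA libraries with Trimmomatic, mapped them to mm10 with HISAT2 and counted them with HTSeq's unstranded option. The deposited values are raw counts per gene symbol, without normalization. Because strand was not used, reads of a gene and of an overlapping antisense gene cannot be told apart. Of values from 1 to 12, 66.2 to 71.4% were even, so mates may have been counted separately, and 1 count may not be 1 fragment.

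Genes were kept with edgeR's filterByExpr (minimum count 10, minimum total 15), leaving 15256 and removing 9983. Counts were scaled with TMM, and 1 quasi-likelihood model of 3 groups was fitted to all 6 libraries (R 4.3.3, edgeR 4.0.16, common biological coefficient of variation 0.105). Benjamini-Hochberg adjustment covered every tested gene, and the standard error is the log2 fold change divided by the square root of its F statistic. Before use, the fit was tried on data simulated from these libraries, for 4OHT against cAMP only. That trial used adjusted p without the fold threshold, so it did not test the full calling rule. By rule, members called in at least 1 comparison and the Timp genes are named with all library values, and some other members are given so as well. The members, gene lists and tests were chosen with earlier results of these data known. Alternatives were RLE size factors, DESeq2 1.42.0, no filter, a stricter filter (10 or more counts per library), a fit of just the groups compared, a replicate block, each library left out, no fold threshold and, added after seeing the data, counts halved and rounded up. Positions and exon lengths come from GENCODE M21, and transcripts were compared with BLAST+ 2.17.0. Promoter windows come from RefSeq, in which 32 of 46 members were matched.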

Additional observations from a re-analysis of the deposited data

How the results depend on the processing

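Without the fold threshold, members called rose from 1 to 11 in 4OHT against cAMP, from 6 to 18 in PD+LY against 4OHT and from 14 to 19 in PD+LY against cAMP, pathway genes from 1 to 5, 9 to 18 and 7 to 13, and all genes from 408 to 1280, 1107 to 3469 and 1409 to 3927. In 4OHT against cAMP, members called were 3 with no filter (Adamts8 and Mmp16 added) and 2 with only the 2 groups compared (Mmp16 added). Leaving out each library gave 1 to 3 members and 1 to 2 pathway genes in 4OHT against cAMP, 6 to 10 and 5 to 9 in PD+LY against 4OHT, and 11 to 13 and 6 to 9 in PD+LY against cAMP. The 3 came without PD+LY library 1 (Adamts8 and Mmp16 added), and the 10 without PD+LY library 2 (Adamts3, Adamts10, Mmp14 and Mmp16 added). Over all genes this range was 164 to 487 in 4OHT against cAMP and 632 to 1176 in PD+LY against 4OHT. The cause of these shifts was not tested beyond the fewer libraries. Of 644 refitted fold changes of named members, 619 stayed on the same side of the threshold, 19 lost the call, 6 gained it and 0 reversed a call. Named members are here those called in the main fit and the Timp genes, so gains of others, such as Mmp16, are outside these counts. Mmp10, Mmp24 and Timp4 could not be tested with at least 10 counts in every library. Mmp24 and Timp4 could not be tested with halved counts, and Timp4 not in some fits of DESeq2 or of just the groups compared.

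With the replicate number as a block, 2 members were called in 4OHT against cAMP (Mmp16 added) instead of 1. Among the members called in the main fit and the Timp genes, no fold change crossed the threshold. Same-numbered libraries deviated together little (correlations 0.06 to 0.21 over genes), and the labels do not say what a number marks. Depth limits the low genes: under 10 counts, as for Mmp10 in 1 PD+LY library, Mmp16 or Timp4, a few reads move the value.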
